A study of Mus musculus with 4 samples.

Results

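The extracellular matrix is remodelled by secreted and membrane-bound proteases and held in check by their inhibitors, and 10 genes of this system were measured here in single nuclei of mouse thalamus. The set was a fixed list of 4 matrix metalloproteinases (Mmp2, Mmp9, Mmp12 and Mmp14), 3 tissue inhibitors of metalloproteinases (Timp1, Timp2 and Timp3) and 3 proteases of the ADAMTS family (Adamts1, Adamts4 and Adamts14). All 10 were found by symbol among the 40091 genes that the 4 libraries listed. They were chosen as a list of names, with earlier results of these data known. Adult wild-type C57BL6 mice aged 7 to 8 weeks received an injection into the right VPM and VPL, the ventral posterior nuclei of the thalamus. The NS group received saline. The COL group received Coll IV, a collagenase that opens vessel walls and causes bleeding, at 0.01 U per 10 nl. Tissue was taken 7 days later. Each library was made from 3 pooled mice, and each group had 2 libraries. Nuclei were separated, and each RNA molecule was counted by its unique molecular identifier (UMI).

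Metalloproteinases are made as inactive precursors and cut collagens, elastin, gelatin, proteoglycans and cell surface proteins once activated. TIMP proteins bind their active sites, and Timp3, which stays bound to the matrix, also blocks several ADAMTS enzymes. In brain, these enzymes are known for work on basement membranes of vessels, on the proteoglycan nets around neurons and on tissue repair after bleeding.

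The files held between 68746459 and 77557870 UMIs per library. Of 32332 barcodes, 32291 passed the filter, with 9673 and 10422 nuclei for NS and 5931 and 6265 for COL (replicate 1 first, here and below). Nuclei of the COL group were deeper, with medians of 8664 and 8691 UMIs against 6489 and 4649 in the NS group. Pairs of libraries shared between 8 and 31 barcode sequences. Nuclei are named for the type whose markers led their cluster, so that each name stands for neuron-like, astrocyte-like nuclei and so on. The 6 neuron markers summed to 4328 to 5455 CPM in neurons and to 745 to 1566 CPM in astrocytes, oligodendrocytes, OPC and microglia, where CPM is a count of UMIs scaled to the same total in every sum. Nuclei of no clear type made up 1423 mixed and 687 unnamed ones, which stayed in the sums over all nuclei. The nuclei named mural and fibroblast held their own 10 markers at 2540 CPM and the 6 endothelial markers at 3844 CPM in COL replicate 1, so that the name goes against the markers there, while in the other libraries their own markers stood at 2688 to 7594 CPM and the endothelial ones at 149 to 546 CPM. NS and COL nuclei of the same glial type mostly fell into different clusters. Astrocytes of the NS replicates lay in the cluster led by Gm6145 (1162 and 1051 nuclei) and those of the COL replicates in the cluster led by Nhsl1 (199 and 271). Microglia lay in clusters led by Gm10790 (NS, 319 and 336) and Ly86 (COL, 293 and 418). OPC, the precursors of oligodendrocytes, lay mainly in clusters led by Pdgfra (NS, 308 and 322) and 9630013A20Rik (COL, 206 and 298). Oligodendrocytes of the COL replicates lay in the cluster led by Cldn14 (1627 and 1554). Neuron clusters also differed between libraries, between the groups and between replicates of the same group. The cluster led by Baiap3 held 2675 and 884 NS and 9 and 68 COL nuclei. That led by Gm15680 held 900 and 1986 against 12 and 30, and that led by Ebf3 96 and 83 against 954 and 1794. Others held many nuclei of both groups, such as that led by Abhd12b (241 and 616 against 670 and 318). Shares of nuclei moved too. Macrophages made up 0.0310% and 0.0768% of the NS nuclei against 5.36% and 7.53% of the COL nuclei, and astrocytes 12.3% and 10.2% against 3.39% and 4.39%. The exact permutation p was 0.33 (two-sided) for either share, the smallest that 4 libraries allow.

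The genes lie apart in the genome (GENCODE M21, build GRCm38/mm10). Mmp2 spans chr8:92827291-92853420, Mmp9 chr2:164940780-164955850, Mmp12 chr9:7344381-7369499 and Mmp14 chr14:54431612-54445364, all on the plus strand. Timp1 spans chrX:20870166-20874735 and Timp3 chr10:86300372-86349506 on the plus strand, and Timp2 chr11:118301069-118355740 on the minus strand. Adamts4 lies on the plus strand at chr1:171250421-171260637. Adamts1 lies on the minus strand at chr16:85793827-85803113 and Adamts14 at chr10:61197112-61273438. Timp1 lies inside Syn1 and Timp3 inside Syn3, both synapsin genes of the opposite strand. Mmp12 overlaps Mmp1b, also on the opposite strand, and Timp2 overlaps Cep295nl on its own strand. Whether counting used strand was not given in the sources used here, so reads of these partners cannot be told apart.

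RefSeq promoters of build GRCm38.p6 were at hand for 7 of the 10 members, and not for Mmp2, Mmp9 and Adamts4. The 250 bases before the start site are shown for the 3 genes that passed the test with a higher level in COL nuclei, Mmp12 with its 2 annotated starts. Capitals mark matches to TGANTCA (the AP-1 motif), TATAAA (the TATA box) and GGGCGG (the GC box), searched on both strands. The first Mmp12 window is chr9:7344147-7344396, whose last 16 bases lie in an exon by GENCODE, and the second, chr9:7347124-7347373, lies inside the gene outside exons. The Adamts1 window is chr16:85803114-85803363, and the Adamts14 window is chr10:61273420-61273669, of which 19 bases lie in an exon, both read on the minus strand.
Mmp12, first start: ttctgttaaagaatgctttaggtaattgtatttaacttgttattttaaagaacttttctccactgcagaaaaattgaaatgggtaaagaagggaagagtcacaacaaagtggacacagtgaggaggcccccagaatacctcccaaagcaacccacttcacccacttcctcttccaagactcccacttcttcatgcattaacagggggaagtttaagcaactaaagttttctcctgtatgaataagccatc
Mmp12, second start: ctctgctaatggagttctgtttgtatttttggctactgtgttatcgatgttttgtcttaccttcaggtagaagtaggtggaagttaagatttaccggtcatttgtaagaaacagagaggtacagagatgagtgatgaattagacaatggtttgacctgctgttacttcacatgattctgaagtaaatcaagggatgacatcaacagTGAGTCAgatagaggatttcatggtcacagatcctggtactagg
Adamts1: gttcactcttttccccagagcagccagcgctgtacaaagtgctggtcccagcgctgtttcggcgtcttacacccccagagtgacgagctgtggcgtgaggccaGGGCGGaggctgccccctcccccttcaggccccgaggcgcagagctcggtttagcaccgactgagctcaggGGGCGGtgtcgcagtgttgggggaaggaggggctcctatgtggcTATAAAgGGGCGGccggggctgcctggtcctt
Adamts14: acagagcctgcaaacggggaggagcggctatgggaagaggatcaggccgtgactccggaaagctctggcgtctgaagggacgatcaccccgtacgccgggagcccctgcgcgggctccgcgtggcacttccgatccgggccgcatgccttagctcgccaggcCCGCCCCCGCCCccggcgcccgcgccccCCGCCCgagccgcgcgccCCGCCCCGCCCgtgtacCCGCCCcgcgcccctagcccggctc
The letters differed between the genes. The Mmp12 windows had 40.0% and 39.6% G or C, no GC box and a single AP-1 match that begins 44 bases before the second start. The Adamts14 window had 76.4% G or C and 6 GC box matches, some of them overlapping, and the Adamts1 window had 65.6%, 3 GC boxes and a TATA box that begins 32 bases before the start. Among 32851 promoters of the same length, 6.75% held the AP-1 letters, 12.4% the TATA box and 32.7% the GC box. A match is a description of letters and not of binding.

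Values below are CPM of the nuclei of a cell type summed within a library, so that a library is a replicate. Groups were compared by edgeR's quasi-likelihood test on the summed counts, with Benjamini-Hochberg adjusted p-values over all genes tested and a threshold of 0.05. In bulk sums over all nuclei, fewer cells of a type and less RNA per cell cannot be told apart. Of the 10 members, 2 passed the test over all nuclei, both higher in COL, where 5.02% of 25570 genes were called higher and 4.43% lower. In neurons none of the 9 members tested passed, with 0.00435% of genes called higher and 0% lower. In neurons 2 of the 9 had an unadjusted p below 0.05, as did 6474 of 23001 genes, and DESeq2 called 2241 genes there but none of the members. In oligodendrocytes 2 of 6 members passed, both lower, against 10.2% of genes higher and 12.5% lower. In astrocytes 3 of 5 passed, 1 higher and 2 lower, against 8.33% and 9.46% of genes. In microglia 1 of 4 passed, higher, against 11.9% higher and 12.1% lower. In OPC 4 of 7 passed, 1 higher and 3 lower, against 8.23% and 10.2%. In mural and fibroblast nuclei neither of the 2 members tested passed, and 0.0275% of genes were called higher and 0% lower. Mmp12, over all nuclei and in microglia, and Adamts14, in OPC and in neurons, passed the filter on low counts only through their COL libraries. These counts and medians, and the folds and p-values of Mmp12 and Adamts14 in those comparisons, are therefore a description. The filter left 8 members untested in mural and fibroblast nuclei, 6 in microglia, 5 in astrocytes, 4 in oligodendrocytes, 3 in OPC and 1, Mmp12, in neurons. The median log2 fold change of the members tested was 0.40 over all nuclei, 0.13 in neurons, -0.57 in oligodendrocytes, -0.56 in astrocytes, -0.14 in microglia and -0.50 in OPC, against medians between -0.03 and 0.02 over all genes in the same comparisons.

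**Figure D1:**
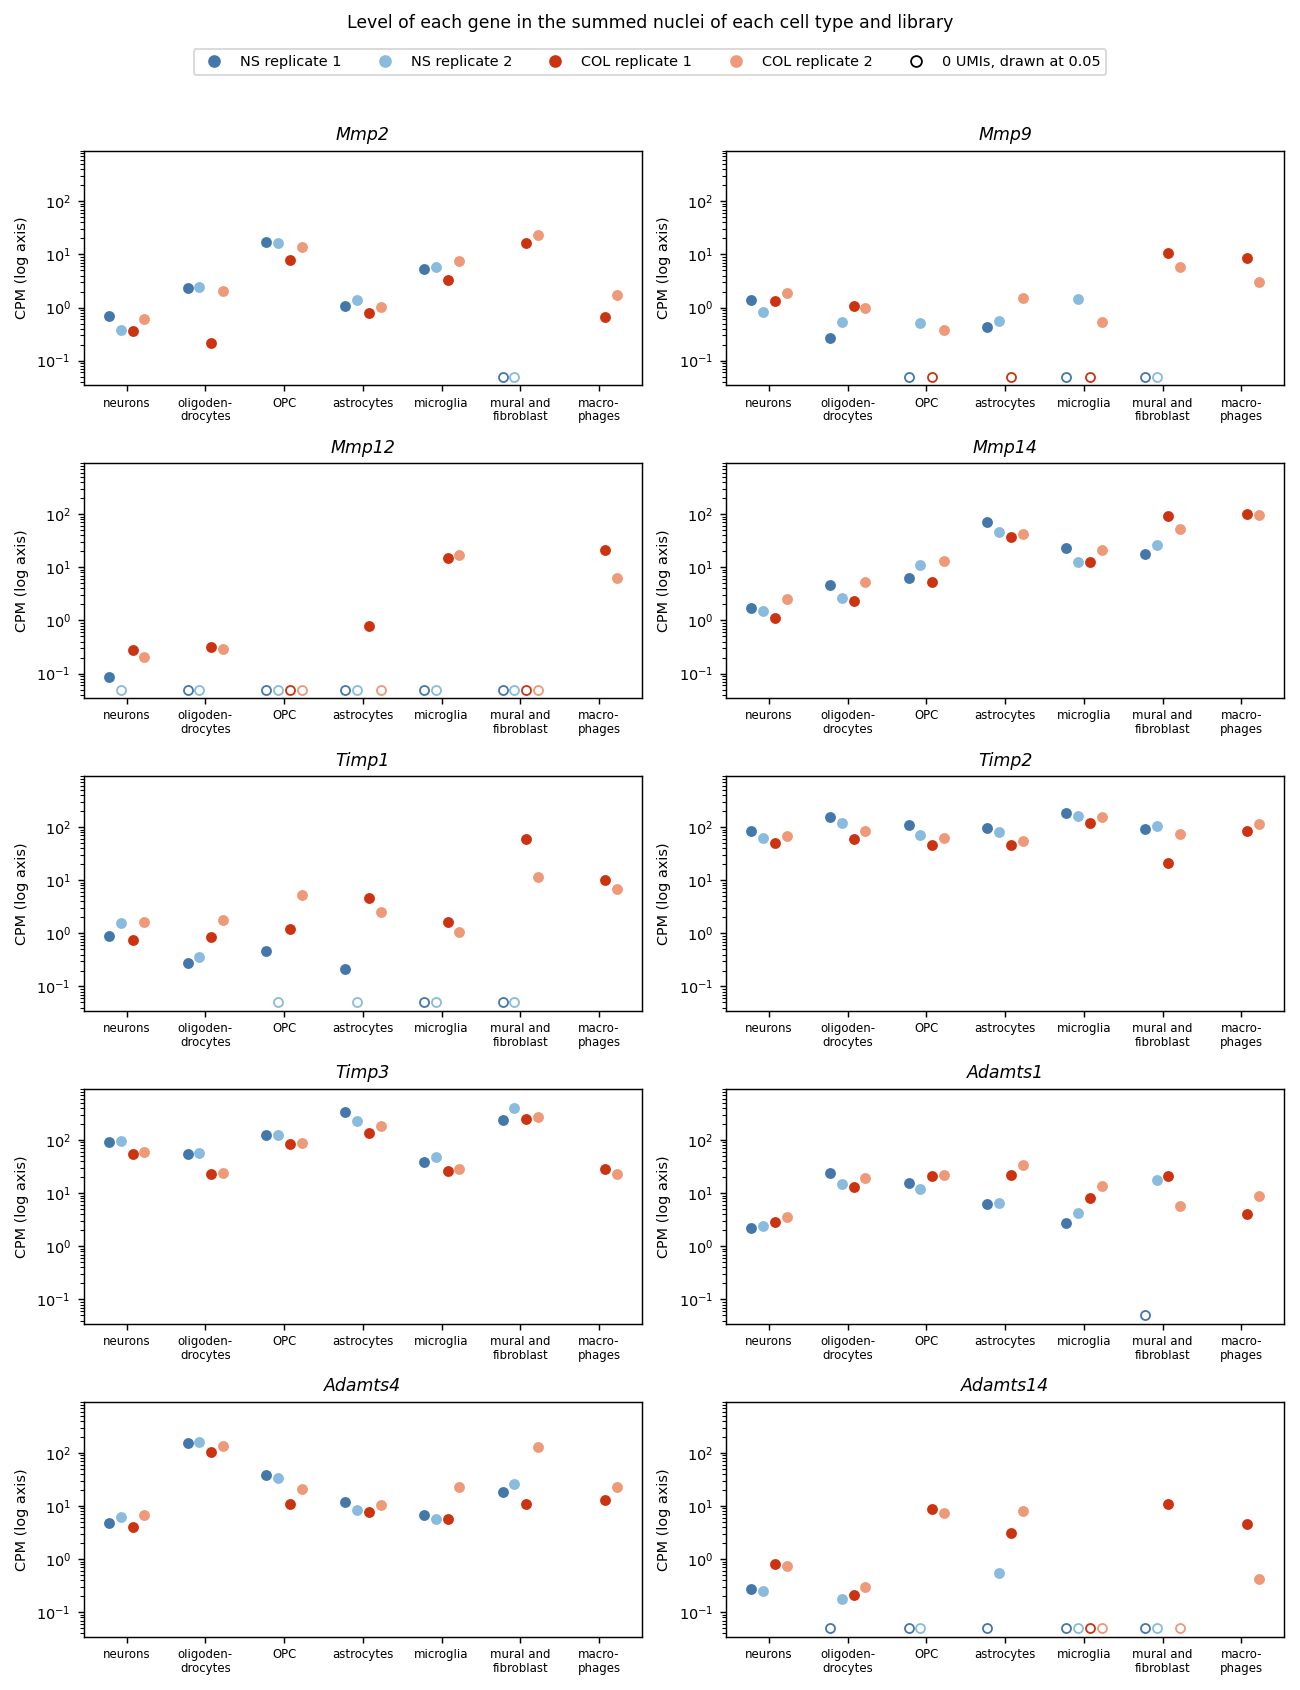
CPM (log axis) of each of the 10 genes in the summed nuclei of 6 cell types and, for the COL group alone, of macrophages. Each point is a library, NS in blues and COL in reds, and open points at 0.05 are libraries with 0 UMIs. Mmp12 and Adamts14 have open NS points and filled COL points in microglia and OPC respectively, and Timp2 and Timp3 are present in every cell type shown.

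**Figure D2:**
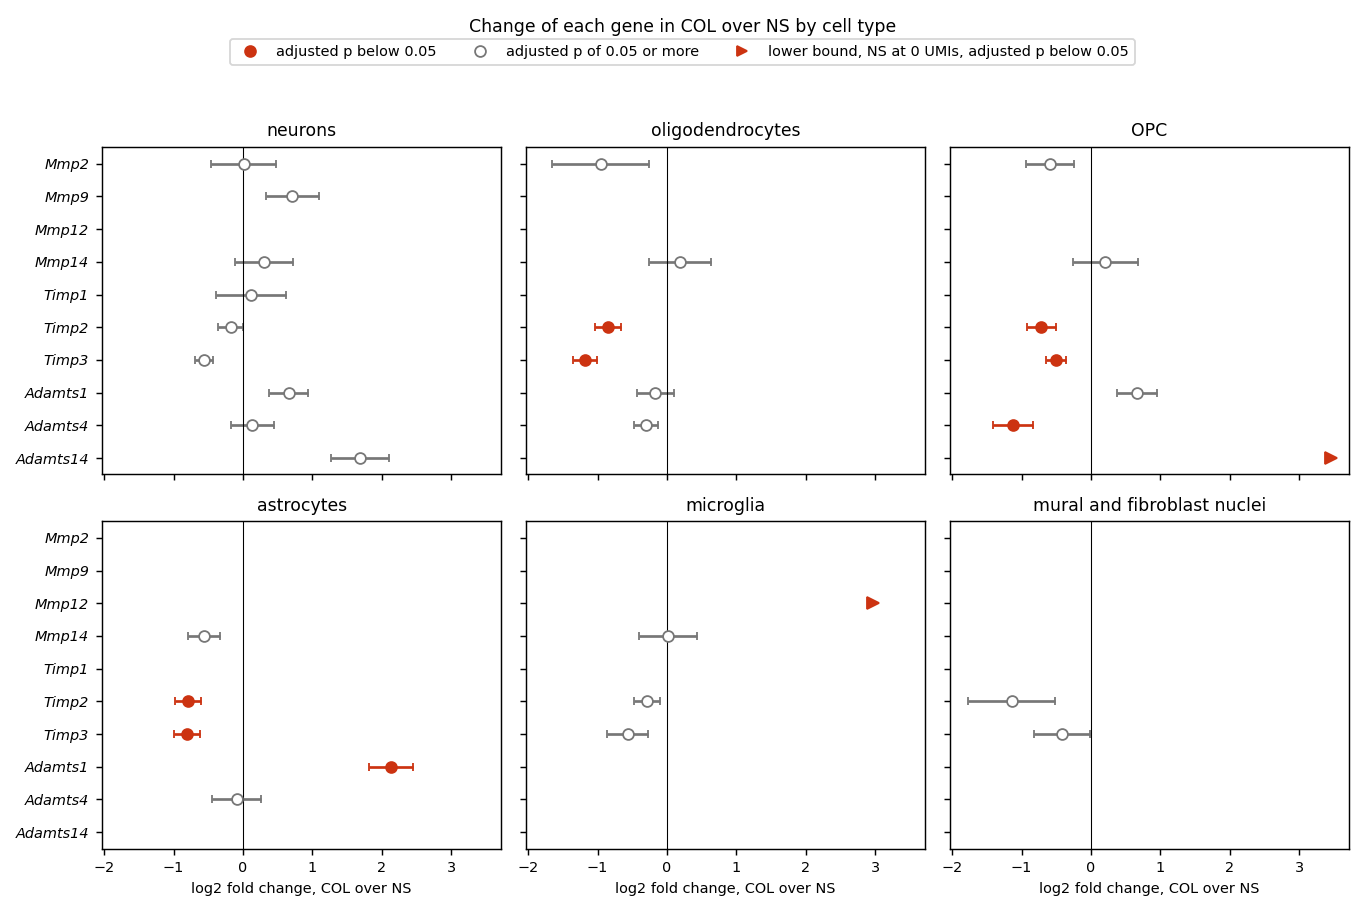
Log2 fold change of CPM, COL over NS (points), with its standard error (bars) for each member and cell type tested, on the edgeR scale. Filled red points passed an adjusted p of 0.05, open points did not, triangles are lower bounds for genes with 0 UMIs in both NS libraries, and empty rows were not tested. Timp2 and Timp3 lie below 0 in all 6 panels, filled in oligodendrocytes, OPC and astrocytes, and Adamts1 in astrocytes is the highest point with a bar.

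Mmp12, the macrophage elastase, cuts elastin and is known as a product of activated macrophages. It was almost absent from NS libraries, with 4 UMIs in replicate 1 and 1 in replicate 2 over all nuclei. The COL libraries held 68 and 63 UMIs, so that the groups did not overlap, and CPM rose from 0.0331 ± 0.0262 to 0.943 ± 0.0509 (SD, n = 2 libraries per group). The log2 fold change was 4.89 ± 0.58 (SE), with an edgeR adjusted p of 0.00794. Since Mmp12 passed the filter over all nuclei only through its COL libraries, both values are a description. The molecules sat in few nuclei. Over both COL libraries, 49 of 12196 nuclei had a UMI of Mmp12, and a single nucleus held 31 UMIs. Of the 131 UMIs, microglia held 50 and macrophages 47. Of the 49 nuclei, 17 were neurons with a single UMI each, 11 macrophages and 4 microglia.

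In microglia, Mmp12 had 0 UMIs in both NS libraries and 18 and 32 in the COL libraries, or 14.9 and 17.3 CPM. Against a floor of 3 UMIs over the NS group, the level was at least 7.85-fold higher in the COL group. The edgeR adjusted p was 0.00102, or 1.17e-07 with no filter on low counts. Mmp12 passed the filter in microglia only through its COL libraries, so that this fold and these p-values are a description. These 50 UMIs came from only 4 of 720 nuclei, of which a nucleus in COL replicate 1 held 15 and another in COL replicate 2 held 31. Without the nucleus of the most UMIs in each library, 3 and 1 UMIs remained in microglia, and Mmp12 was no longer tested there (an alternative chosen after the data had been seen). The same alternative over all nuclei left 45 and 32 COL UMIs and an adjusted p of 0.0232 in edgeR. Macrophage markers moved with the group in these nuclei, since their summed level in microglia was 8.11 and 15.7 CPM in NS and 151 and 149 CPM in COL, and the 6 microglial markers summed to 6958 and 6732 CPM against 4968 and 5196 CPM. Their part in the result was not tested. The COL macrophages held 32 and 15 UMIs of Mmp12 (21.2 and 6.35 CPM) in 11 of 790 nuclei, and the 11 NS macrophages were too few for a comparison. OPC, which hold no Mmp12 in any library, had 0 of 512 COL nuclei with a UMI, which allows a share of nuclei with a UMI of up to 0.586%, a limit on detection and not on expression.

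Mmp14 encodes a membrane-bound metalloproteinase that cuts collagen at the cell surface and activates the Mmp2 precursor. Astrocytes were its main site in the NS group, with 59.1% and 50.5% of all its UMIs, against 14.0% and 13.8% in the COL group. In COL libraries macrophages took that place, with 45.2% and 38.4%. In astrocytes the level was 71.6 and 46.0 CPM in NS and 37.1 and 41.5 CPM in COL. These groups did not overlap, but the log2 fold change of -0.56 ± 0.23 (SE) did not pass the test (edgeR adjusted p = 0.108). Macrophages of the COL libraries had 103 and 96.5 CPM. In these libraries 27.4% and 30.5% of macrophages had a UMI at median depths of 4236 and 4467 UMIs, against 1.80% and 3.79% of neurons at the greater depths of 14394 and 14393.5 UMIs. Summed over all nuclei, the levels were 7.32 and 4.79 CPM in NS and 4.94 and 8.55 CPM in COL, which overlapped (log2 fold change 0.29 ± 0.29, edgeR adjusted p = 0.504). Microglia had 23.0 and 12.8 CPM against 12.4 and 21.1 CPM, with a log2 fold change of 0.01 ± 0.42. Mural and fibroblast nuclei had 1 and 3 UMIs in NS and 17 and 9 in COL (18.1, 26.4, 91.3 and 51.5 CPM), below the filter, and stood above microglia in 3 of 4 libraries. The 91.3 CPM belong to the library in which endothelial markers led these nuclei, and their part was not tested. The remaining order, microglia above OPC, oligodendrocytes and neurons, held in all 4.

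**Figure D3:**
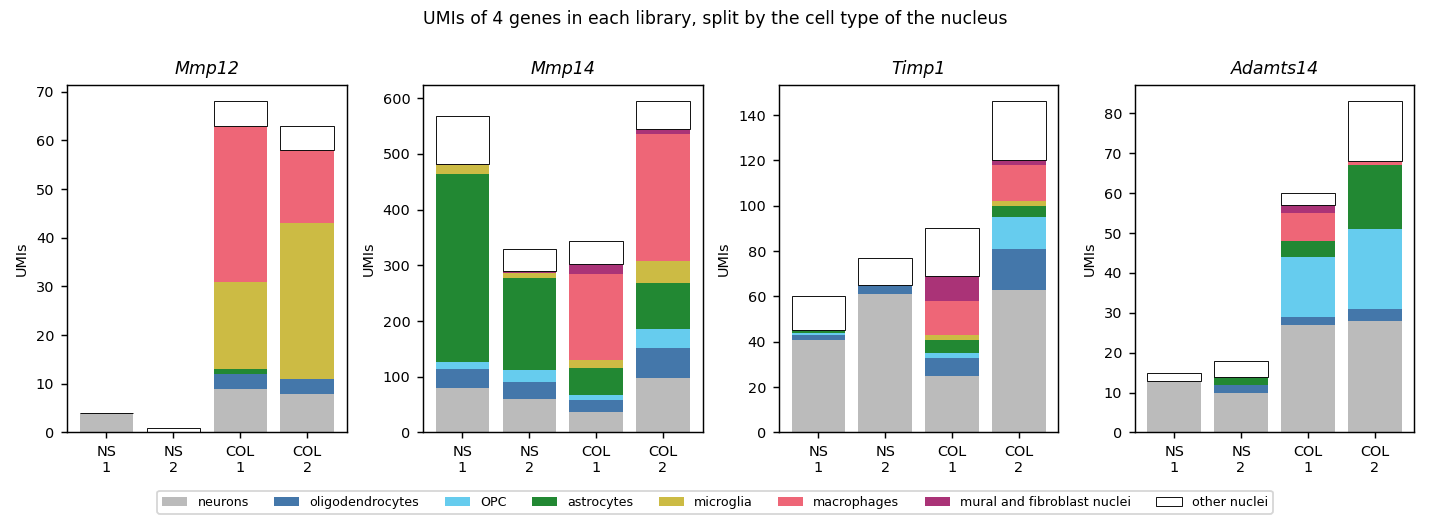
UMIs (linear axis from 0) of Mmp12, Mmp14, Timp1 and Adamts14 in each of the 4 libraries, split by the cell type of the nucleus. The other nuclei are all types not listed, mixed and unnamed clusters included. Mmp12 has 4 and 1 UMIs in NS and 68 and 63 in COL, and the tallest part of the Mmp14 bars is astrocytes in NS and macrophages in COL.

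The gelatinases Mmp2 and Mmp9 cut denatured collagen and the collagen of basement membranes. Both were low. Mmp2 averaged 13.8 ± 4.29 CPM (SD over 4 libraries) in OPC, above mural and fibroblast nuclei in 2 of 4 libraries. OPC had 17.1 and 16.6 CPM in NS and 7.77 and 13.5 CPM in COL, and the groups did not overlap (log2 fold change -0.59 ± 0.34, edgeR adjusted p = 0.265). Mural and fibroblast nuclei had 0 UMIs of Mmp2 in both NS libraries and 3 and 4 UMIs in the COL libraries. All of them lay in the subclusters with Dcn, which encodes a fibroblast proteoglycan, among their leading genes. Most NS nuclei of these lay in the subcluster led by Ranbp3l (3 and 12) and the COL nuclei in that led by Adamts12 (12 and 9). Mmp9 had 1.10 and 0.786 CPM over all NS nuclei and 1.25 and 1.58 CPM over all COL nuclei. The groups did not overlap, and the change of 0.74 ± 0.34 on the log2 scale did not pass the test (edgeR adjusted p = 0.177). Most Mmp9 UMIs lay in neurons, with shares between 50.6% and 76.5% over the 4 libraries, at 0.818 to 1.91 CPM. Of the UMIs of all genes, neurons held 46515520 of 77546840 and 39097430 of 68723738 in NS. In COL they held 32841263 of 69489118 and 38222991 of 69495483. COL macrophages held 13 and 7 UMIs of Mmp9 (8.63 and 2.96 CPM).

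Adamts1, a secreted protease that cuts aggrecan and versican, averaged 17.9 ± 5.09 CPM in oligodendrocytes and 17.7 ± 4.69 CPM in OPC (SD over 4 libraries), an order kept in only 2 of 4 libraries. NS astrocytes had 6.18 and 6.65 CPM, and COL astrocytes had 21.7 and 33.4 CPM. The groups did not overlap, and the level rose by 2.13 ± 0.31 (SE) on the log2 scale, or 4.39-fold (edgeR adjusted p = 0.00176). Endothelial markers in the same astrocytes summed to 18.5 and 23.0 CPM in NS and 34.8 and 51.2 CPM in COL, and the 3 markers of dividing cells to 2.77 and 2.49 against 8.51 and 16.7 CPM. The 6 OPC markers summed to 1321 and 1250 against 1700 and 1556 CPM there. The 6 oligodendrocyte markers overlapped, with 1336 and 1693 against 940 and 1720 CPM. The part of these markers was not tested. A single nucleus of COL replicate 2 held 33 of its 66 UMIs of Adamts1. Without the nucleus of the most UMIs in each library, the log2 fold change was 1.54 and the adjusted p in edgeR was 0.0106. After thinning every nucleus to 1000 UMIs, 0.840% and 1.04% of NS astrocytes and 1.00% and 1.09% of COL astrocytes had a UMI, which overlapped, against 2.26% and 2.08% and 7.46% and 8.73% without thinning. Per nucleus the level was 0.0243 and 0.0226 UMIs in NS and 0.139 and 0.240 UMIs in COL. Microglia had 2.70 and 4.28 CPM against 8.28 and 13.5 CPM, from 5 and 35 UMIs per group, and were below the filter. OPC had 15.7 and 12.1 CPM against 20.9 and 22.2 CPM (log2 fold change 0.66 ± 0.29, edgeR adjusted p = 0.140). In oligodendrocytes, with 24.3, 14.9, 12.9 and 19.7 CPM in the 4 libraries, the groups overlapped.

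Adamts4, the aggrecanase that cuts aggrecan and brevican, was a gene of oligodendrocytes, which held 66.2% to 75.7% of its UMIs. Their level was 150 and 160 CPM in NS and 102 and 137 CPM in COL, which did not overlap, and the difference did not pass the test (log2 fold change -0.30 ± 0.17, edgeR adjusted p = 0.238). At an equal depth of 1000 UMIs per nucleus, 14.3%, 13.8%, 7.98% and 12.3% of oligodendrocytes had a UMI, against 0.542%, 0.623%, 0.399% and 1.00% of neurons. Without thinning the shares of oligodendrocytes were 36.3%, 36.2%, 36.5% and 51.6%. Oligodendrocytes stood above the next type, mural and fibroblast nuclei, in all 4 libraries.

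In OPC, Adamts4 fell from 38.0 and 34.2 CPM in NS to 10.8 and 20.7 CPM in COL, by 1.12 ± 0.29 on the log2 scale (edgeR adjusted p = 0.0192). DESeq2 did not call it (adjusted p = 0.132), and the call ended after leaving out NS replicate 1 (adjusted p = 0.0633) and when nuclei were assigned by their marker score, where the log2 fold change was -0.14 (adjusted p = 0.761). On other scales the groups overlapped, with 0.205 and 0.162 UMIs per nucleus in NS against 0.0865 and 0.181 in COL. The share of OPC with a UMI was 11% and 10.7% against 7.69% and 11.5%, and after thinning to 1000 UMIs 1.54% and 2.62% against 0.481% and 1.97%. Oligodendrocyte markers, which are the markers of the type that holds most Adamts4, summed to 3589 and 3785 CPM in NS and 2052 and 3049 CPM in COL OPC, with all 6 markers present. Their part in the result was not tested. In microglia and in mural and fibroblast nuclei COL replicate 2 stood above the other libraries, with 23.2 CPM against 5.71 to 6.76 CPM and 132 CPM against 10.7 to 26.4 CPM. In astrocytes it did not, with 11.7 CPM in NS replicate 1 and 10.6 CPM in COL replicate 2.

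Adamts14 removes the amino-terminal propeptide of fibrillar procollagens. Over all nuclei it rose from 0.228 ± 0.0484 CPM to 1.03 ± 0.234 CPM (SD, n = 2 libraries per group), by 2.31 ± 0.41 on the log2 scale (edgeR adjusted p = 0.0279). The 4 libraries held 15, 18, 60 and 83 UMIs. Without NS replicate 1 the log2 fold change was 2.05 and the adjusted p in edgeR was 0.0992. In OPC there were 0 UMIs in both NS libraries and 15 and 20 in the COL libraries (8.97 and 7.51 CPM), in 9 and 11 nuclei. For the 811 NS nuclei a count of 0 allows a share of nuclei with a UMI of up to 0.370%, and 20 of the 512 COL nuclei had one. NS nuclei were shallower, with medians of 4828 and 4350 UMIs against 7391 and 7844, and after thinning to 1000 UMIs the shares were 0% in each NS library and 0% and 0.658% in the COL libraries. No COL nucleus of OPC held more than 4. Against the floor of 3 UMIs over the NS group, the level was at least 11-fold higher (edgeR adjusted p = 0.00161, or 3.31e-08 with no filter on low counts). Adamts14 passed the filter in OPC only through its COL libraries, so that this fold and these p-values are a description. DESeq2 gave no adjusted p for it. Microglia, with 0 of 720 COL nuclei, allow a share of nuclei with a UMI of up to 0.417%. The level of 3 markers of dividing cells also moved in OPC, from 34.7 and 44.3 CPM in NS to 272 and 229 CPM in COL, and their part was not tested. Astrocytes had 0 and 2 UMIs against 4 and 16, below the filter. Neurons had 0.279 and 0.256 CPM against 0.822 and 0.733 CPM, without overlap, and did not pass the test (log2 fold change 1.69 ± 0.41, edgeR adjusted p = 0.104). The NS libraries alone would not have passed the filter in neurons, so that this fold and p-value are a description.

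Timp3, the matrix-bound inhibitor, was present in each of the 6 cell types tested. Among them it averaged 287 ± 74.4 CPM (SD over 4 libraries) in mural and fibroblast nuclei and 220 ± 83.7 CPM in astrocytes, an order that 3 of 4 libraries kept. The order of astrocytes, OPC, neurons and oligodendrocytes held in all 4 libraries, and oligodendrocytes did not stand apart from microglia. In oligodendrocytes, Timp3 fell from 54.2 and 57.0 CPM in NS to 22.8 and 23.7 CPM in COL, by 1.18 ± 0.18 on the log2 scale (edgeR adjusted p = 0.00529). The call held in all 15 alternatives. In the same oligodendrocytes the 6 astrocyte markers summed to 369 and 289 CPM in NS and to 211 and 232 CPM in COL. The 6 OPC markers went the other way, from 232 and 191 CPM to 639 and 626 CPM, and the part of either was not tested. In astrocytes Timp3 fell from 332 and 232 CPM to 138 and 180 CPM, by 0.81 ± 0.19 on the log2 scale (edgeR adjusted p = 0.0158). That call was lost without NS replicate 1 (adjusted p = 0.0948) and without COL replicate 1 (adjusted p = 0.139). The 10 mural and fibroblast markers summed to 196 and 162 CPM in NS astrocytes and to 99.0 and 116 CPM in COL astrocytes, and their part was not tested. In OPC it fell from 125 CPM in each NS library to 84.9 and 88.6 CPM, by 0.50 ± 0.15 on the log2 scale (edgeR adjusted p = 0.0336), and 8 of 15 alternatives lost the call, each library left out in turn among them. Neurons had 91.6 and 95.3 CPM against 54.0 and 59.4 CPM. These groups did not overlap, and the log2 fold change of -0.57 ± 0.13 had an edgeR adjusted p of 0.104. The neuron cluster kept apart, with Cd247 among its leading genes, was not tested. It had 128 and 120 CPM in NS and 142 and 131 CPM in COL, without overlap and in the other direction. Microglia had 39.2 and 47.1 CPM against 26.5 and 28.6 CPM, again without overlap (log2 fold change -0.57 ± 0.29, edgeR adjusted p = 0.183). Mural and fibroblast nuclei overlapped, with 235 and 397 CPM against 247 and 269 CPM.

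Timp2, an inhibitor that also helps Mmp14 to activate the Mmp2 precursor, was highest of the 6 types tested in microglia (155 ± 29.0 CPM, SD over 4 libraries) and next in oligodendrocytes (105 ± 41.9 CPM), an order that every library kept. Mural and fibroblast nuclei, OPC, astrocytes and neurons had between 65.8 and 73.0 CPM on average, and neighbours in that order kept it in only 2 of 4 libraries. In oligodendrocytes Timp2 fell from 156 and 120 CPM to 60.7 and 84.0 CPM, by 0.85 ± 0.19 on the log2 scale (edgeR adjusted p = 0.0154), and without NS replicate 1 the adjusted p was 0.116. In astrocytes it fell from 98.2 and 79.3 CPM to 45.6 and 55.2 CPM, by 0.80 ± 0.19 (edgeR adjusted p = 0.0152). DESeq2 did not call it (adjusted p = 0.0585), and leaving out NS replicate 1 or COL replicate 1 ended the call (adjusted p = 0.0855 and 0.100). In OPC it fell from 109 and 72.0 CPM to 45.4 and 61.2 CPM, by 0.72 ± 0.21 (edgeR adjusted p = 0.0312). That call was lost with DESeq2, with nuclei assigned by marker score, and without NS replicate 1 or COL replicate 1. The 6 oligodendrocyte markers summed to 3589 and 3785 CPM in NS and 2052 and 3049 CPM in COL OPC, and their part was not tested. Microglia, with 188 and 161 CPM against 118 and 152 CPM, did not pass (log2 fold change -0.29 ± 0.19, edgeR adjusted p = 0.294). Nor did mural and fibroblast nuclei, with 90.4 and 106 CPM against 21.5 and 74.4 CPM from 4 to 13 UMIs a library (-1.14 ± 0.63, edgeR adjusted p = 0.444). Neurons overlapped, with 85.7 and 61.1 CPM against 49.2 and 67.0 CPM.

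These falls were falls in CPM, relative to all UMIs. COL nuclei held more UMIs, with medians of 5210 and 5900 in oligodendrocytes against 3164 and 2935 in NS, and 5674 and 6543 in astrocytes against 3662 and 3272. Per nucleus, oligodendrocytes held 0.189 and 0.182 UMIs of Timp3 in NS and 0.133 and 0.155 in COL. Astrocytes held 1.30 and 0.789 UMIs of Timp3 in NS and 0.886 and 1.29 in COL, which overlapped. Timp2 overlapped per nucleus in both types, with 0.545 and 0.384 against 0.353 and 0.547 UMIs in oligodendrocytes and 0.386 and 0.270 against 0.294 and 0.396 UMIs in astrocytes. In OPC the order turned for Timp3, with 0.677 and 0.591 UMIs per nucleus in NS below 0.683 and 0.776 in COL, while Timp2 overlapped there (0.587 and 0.340 against 0.365 and 0.536). The share of astrocytes with a UMI of Timp3 was 63.8% and 48.6% in NS and 52.2% and 60.0% in COL. After thinning every nucleus to 1000 UMIs it was 26.7% and 20.8% against 14.5% and 16.7%. In OPC the thinned share was 13.3% and 12.1% against 10.1% and 9.21%. At equal depth the groups were apart for Timp3 in both types, with NS higher. For Timp2 the thinned shares were 10.6% and 8.17% against 7% and 4% in astrocytes, which were apart, and 10.8% and 5% against 4.33% and 5.92% in OPC, which overlapped. Syn3, in which Timp3 lies, had 79.2, 91.4, 82.5 and 101 CPM in oligodendrocytes of the 4 libraries and 364, 331, 340 and 450 CPM in neurons, with NS and COL overlapping in both.

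**Figure D4:**
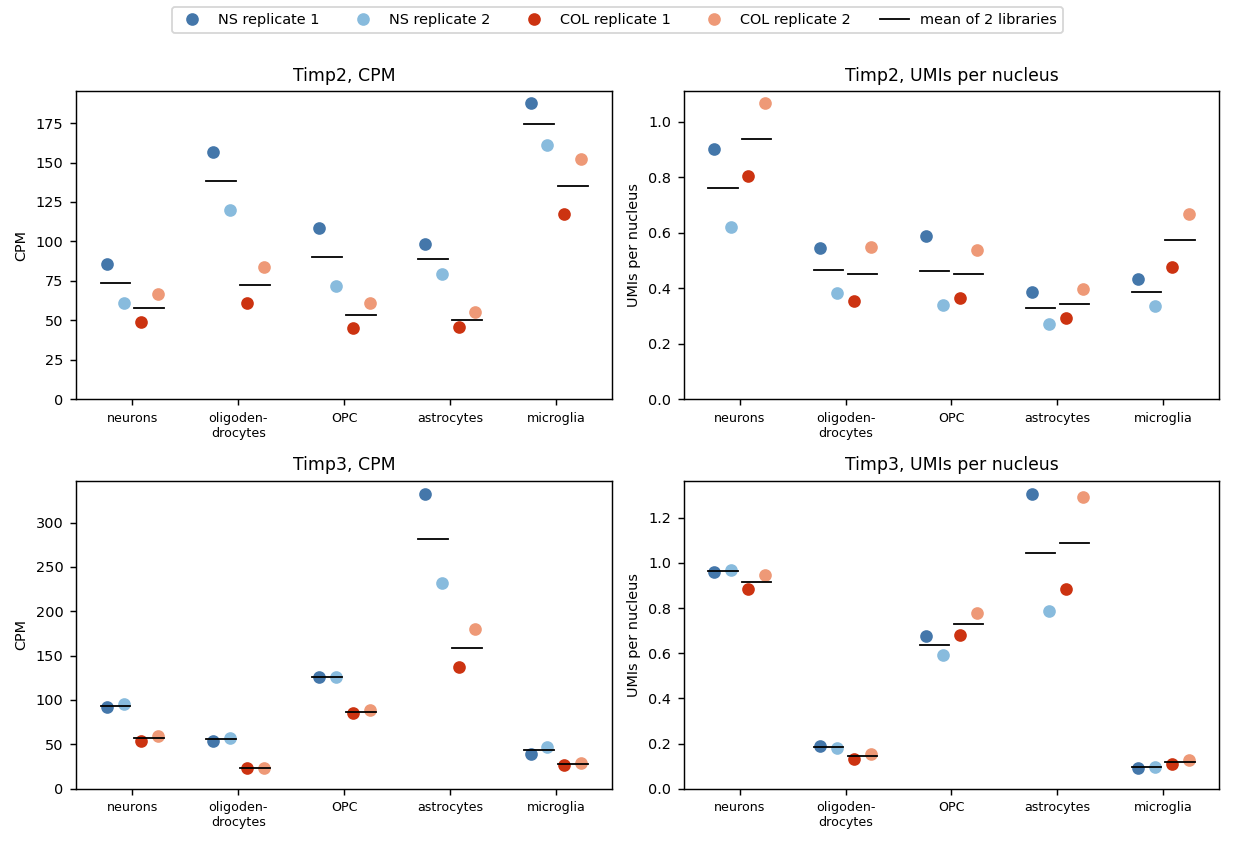
Timp2 (top) and Timp3 (bottom) in 5 cell types as CPM (left) and UMIs per nucleus (right), both axes linear from 0. Points are libraries and lines are means of 2 libraries. On the left the COL points of oligodendrocytes, OPC and astrocytes lie below the NS points, and on the right Timp2 points of the groups overlap in these types.

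Timp1, the inducible inhibitor of the family, was sparse, with 60 and 77 UMIs in the NS libraries and 90 and 146 in the COL libraries. Over all nuclei the levels of 0.774 and 1.12 CPM in NS and 1.30 and 2.10 CPM in COL did not overlap, and the change did not pass the test (log2 fold change 0.97 ± 0.38, edgeR adjusted p = 0.134). Neurons held 68.3% and 79.2% of the NS UMIs and 27.8% and 43.2% of the COL UMIs. The UMIs of all genes that neurons held are given above with Mmp9. The level of Timp1 in neurons overlapped between the groups, with 0.881 and 1.56 CPM against 0.761 and 1.65 CPM. Of the 6 types tested, neurons also had the highest level of Syn1, in which Timp1 lies (162 to 186 CPM). OPC had 71.0 to 76.9 CPM of Syn1 and astrocytes 35.2 to 63.3 CPM.

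In glia and vessels the counts of Timp1 were too low for the filter, so that no order of the groups is read from them. Astrocytes had 1 and 0 UMIs in NS and 6 and 5 in COL, from 2255 NS and 476 COL nuclei. OPC had 1 and 0 against 2 and 14, of which a single nucleus held 5. Oligodendrocytes had 2 and 4 against 8 and 18. Microglia had 0 and 0 against 2 and 2. Mural and fibroblast nuclei had 0 and 0 against 11 and 2, of which the subclusters with Dcn among their leading genes held 11 and 1. The 11 lay in the library in which endothelial markers led these nuclei, and their part was not tested. COL macrophages held 15 and 16 UMIs (9.96 and 6.77 CPM). Endothelial nuclei, with 7 to 24 per library, were not tested. They held 0 UMIs of Timp1 in NS and 1 and 6 in COL, the 6 in a single nucleus, and their Timp3 in COL replicate 1 was 34 UMIs, of which a single nucleus held 32.

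Whether changes differed between cell types was tested as the change in a type less the mean change in the other 5, with the library as a block. For Adamts4 in OPC the contrast was -1.73 ± 0.38 on the log2 scale (edgeR adjusted p = 0.00886), where 1.64% of 17821 genes were called. The other types included microglia (9 NS and 50 COL UMIs) and mural and fibroblast nuclei (4 and 25), where Adamts4 was below the filter. Most of those COL UMIs lay in replicate 2 (43 and 23), so that no difference between types is read from the contrast. For Timp1 in neurons the same contrast gave -5.55 ± 1.25 (edgeR adjusted p = 0.00621), where 4.46% of genes were called. It set neurons, whose own log2 fold change was 0.11 ± 0.50, against 5 types with 0 to 6 NS UMIs each, in which Timp1 was below the filter, so that no difference between types is read from it. The falls of Timp2 and Timp3 in oligodendrocytes, astrocytes and OPC were not shown to differ from the other types, nor was the rise of Adamts1 in astrocytes (1.47 ± 0.47, edgeR adjusted p = 0.142).

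The rest of the system was counted from lists. Of 10 other inhibitors, receptors and activators, 3 passed higher in COL over all nuclei and none lower, where 5.02% of all genes were called higher and 4.43% lower. Thbs1, a matrix protein that binds proteases and activates TGF-beta, had 0.554 and 0.524 CPM in NS and 26.5 and 22.4 CPM in COL (log2 fold change 5.66 ± 0.26, edgeR adjusted p = 0.00102). Cd44, the hyaluronan receptor that docks metalloproteinases, had 5.40 and 3.38 CPM against 39.5 and 37.9 CPM (3.31 ± 0.24). A2m, the wide-range inhibitor alpha-2-macroglobulin, had 1.95 and 2.31 CPM against 4.37 and 11.4 CPM (1.99 ± 0.41). In oligodendrocytes, OPC and astrocytes the same 3 genes passed, and in microglia Cd44 and Thbs1, where 8.23% to 11.9% of all genes were called higher. In astrocytes Cd44 went from 8.10 and 3.88 CPM to 127 and 98.3 CPM, and A2m from 17.7 and 23.6 CPM to 129 and 204 CPM. Bsg, the inducer of metalloproteinases also named basigin, fell in all 4 glial types, by 0.92 to 1.16 on the log2 scale, and Timp4 fell in astrocytes (61.6 and 69.9 CPM against 24.0 and 36.0 CPM). Neurons had no call in this list.

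Of 10 matrix substrates, 4 passed higher over all nuclei and none lower, against 5.02% and 4.43% of all genes. Fn1, fibronectin, had 1.44 and 1.18 CPM in NS and 22.8 and 32.4 CPM in COL (log2 fold change 4.53 ± 0.21, edgeR adjusted p = 0.00102). It rose in oligodendrocytes, astrocytes, microglia, OPC and mural and fibroblast nuclei. In the last, 0.0275% of all genes were called higher. Endothelial markers led those nuclei in COL replicate 1, and their part was not tested. The 6 macrophage markers, low in the glial types, moved with the group there as well. They summed to 2.30 and 3.82 CPM in NS and 18.2 and 26.4 CPM in COL oligodendrocytes, to 8.10 and 13.6 against 27.1 and 33.4 CPM in astrocytes, and to 2.37 and 3.02 against 17.3 and 24.8 CPM in OPC. In mural and fibroblast nuclei they overlapped, with 36.2 and 8.81 CPM against 10.7 and 22.9 CPM. The part of these markers in the rises of Fn1, Cd44 and Thbs1 was not tested. The fibrillar collagens Col3a1 and Col1a1 also rose over all nuclei (3.53 ± 0.41 and 1.78 ± 0.33). Tnc, tenascin C, rose in OPC from 9.5 and 5.54 CPM to 166 and 181 CPM, and in astrocytes from 13.9 and 20.2 CPM to 77.3 and 80.6 CPM. Bcan, brevican, a substrate of Adamts4, fell in astrocytes (355 and 315 CPM against 188 and 226 CPM) and in OPC (285 and 186 CPM against 134 and 136 CPM), and Ncan, neurocan, fell in astrocytes by 0.74 ± 0.20. Vcan, versican, rose in microglia by 2.00 ± 0.49 and in oligodendrocytes by 1.30 ± 0.23. The 6 OPC markers went from 257 and 213 CPM to 653 and 567 CPM in the same microglia and from 232 and 191 CPM to 639 and 626 CPM in the same oligodendrocytes, and their part was not tested.

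Of 19 other metalloproteinases, 18 were matched and 12 were tested over all nuclei, where 3 passed, all higher, and 5.02% of all genes were called higher. All 3 were very low in NS and passed the filter on low counts only through their COL libraries, so that their count and p-values are a description and no fold is given. Mmp8 had 0.0258 and 0.0146 CPM in NS and 0.792 and 1.31 CPM in COL, Mmp25 had 0.0387 and 0.0146 CPM against 0.187 and 0.561 CPM, and Mmp27 had 0.0258 and 0.0437 CPM against 0.173 and 0.806 CPM (edgeR adjusted p = 0.00534, 0.0357 and 0.0453). Mmp8 and Mmp25 are known from neutrophils, whose 5 markers summed to 0.593 and 0.524 CPM in NS and 1.28 and 2.96 CPM in COL, and their part was not tested. Mmp16, a membrane-bound relative of Mmp14, rose in oligodendrocytes, astrocytes and microglia, in the last from 43.3 and 48.5 CPM to 129 and 123 CPM. The OPC markers given above for Vcan were higher in COL in the same microglia and oligodendrocytes, and their part was not tested. Mmp19 fell in astrocytes and OPC, and Mmp28 fell in microglia by 2.38 ± 0.53. Of 16 other ADAMTS genes, 15 were tested over all nuclei and none passed by edgeR. In oligodendrocytes 5 of 13 rose and 1 fell, against 10.2% and 12.5% of all genes. Adamts17 (1.58 ± 0.26), Adamts3 (1.55 ± 0.38) and Adamts9 (1.40 ± 0.38) rose, and Adamts6 fell by 0.60 ± 0.18. In the same oligodendrocytes the OPC markers given above for Vcan were higher in COL, and their part was not tested. Adamts9 rose in OPC from 29.9 and 31.7 CPM to 97.5 and 108 CPM (1.77 ± 0.17, edgeR adjusted p = 8.19e-05), and Adamts12 fell in astrocytes (50.7 and 45.2 CPM against 24.7 and 18.7 CPM).

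Each member was also compared with 22102 other genes by Pearson's r of log2(CPM + 1) over 24 sums of 6 cell types and 4 libraries. These sums share libraries, depth and cell types, so that r is a description. Adamts4 was most like C030029H02Rik (0.92), Ugt8a (0.92) and Tspan2 (0.92). Timp3 was most like Sdc2 (0.93), Fgfr1 (0.92) and Nr2f1 (0.92), and Timp2 most like Ypel3 (0.91). Mmp14 was most like Wwc2 (0.92), Eci2 (0.91) and Slc1a3 (0.90), the last an astrocyte glutamate transporter. Mmp12 was most like Stra6l (0.98), Tfec (0.97) and Clec2i (0.95), and Adamts14 most like Tnc (0.84), which is itself a substrate on the list above. Timp1 was most like Ccl7 (0.91), Mmp2 most like Gm43627 (0.90), Mmp9 most like Hmcn2 (0.88) and Adamts1 most like Cdh19 (0.82).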

How the data were processed

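Nuclei of 4 thalamus libraries (2 NS, 2 COL) were measured on the 10x Genomics platform. The authors deposited a matrix of whole-number UMI counts for each library, not normalized, made with Cell Ranger 1.2.0 on mm10 per the labels and the methods. Whether intronic reads or strand were used was not given in the sources used here. Barcodes with more than 50 genes and under 5% mitochondrial UMIs were kept, log-normalized and clustered (5000 variable genes without the members and lists, 15 principal components, Leiden resolution 0.8, Python 3.11.15). Clusters were named from the marker lists, with cut-offs set after the clusters had been seen: 3 markers in 25% of nuclei, a lead of 0.1 over the next type, and under 50% scored doublets. A neuron cluster with Cd247 among its leading genes and dividing microglia were kept apart. Free RNA was not removed.

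Counts were summed per library and type and tested with edgeR 4.0.16 (TMM, filterByExpr) under R 4.3.3, with DESeq2 1.42.0 as the alternative, for types with 20 nuclei in every library. Scripts were tested on simulated data. Without scaling, the median log2 fold change of all genes was -0.13 over all nuclei and -0.15 in neurons, against 0.02 and 0.01 with TMM. The members and lists were chosen with earlier results of these data known. Named genes were all members and, per list, type and direction, at most 3 called genes of largest change. Mice were pooled, so that p-values measure the spread between pools. The values of 1 further overlapping gene are not reported here. Intervals and floors cover counting error only.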

Additional observations from a re-analysis of the deposited data

Results flagged for a closer look

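The difference of the change between cell types passed the test for 2 members. Timp1 in neurons gave -5.55 ± 1.25 (SE) on the log2 scale relative to the mean of the other cell types (edgeR adjusted p = 0.00621). This is a fitted value that depends on the prior count, since the other 5 types held 0 to 6 NS UMIs of Timp1 each, and it does not show that the change differed. The call was lost without NS replicate 2 (adjusted p = 0.202) and without COL replicate 1 (adjusted p = 0.0704). Adamts4 in OPC gave -1.73 ± 0.38 relative to the other types (edgeR adjusted p = 0.00886), and the call was lost without COL replicate 2. That library had the highest Adamts4 in microglia and in mural and fibroblast nuclei, where the gene was below the filter. No difference of the change is read from this contrast. No group had the 4 samples needed to look for single outlying samples.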

How the results depend on the processing

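Of 171 fold changes of called members recomputed under another setting, 149 kept the call and 22 lost it with the same direction. None reversed, and the cause of the losses was not tested. The 149 include Mmp12 over all nuclei (12 of 12) and in microglia (14 of 14) and Adamts14 in OPC (13 of 13). These comparisons passed the filter on low counts only through their COL libraries, so that this part of the tally is a description. The 171 leave out settings in which a gene had no adjusted p. Mmp12 in microglia without the nucleus of most UMIs and Adamts14 in OPC with DESeq2 are among those left out. Leaving out 1 library at a time gave 1 to 3 members called over all nuclei, 1 to 4 in oligodendrocytes, 1 to 4 in astrocytes, 1 to 2 in microglia, 1 to 3 in OPC and 0 in neurons and in mural and fibroblast nuclei, and 1 to 2 differences between cell types. In the same fits 6.04% to 26.3% of all genes were called over all nuclei, 12% to 38.8% in oligodendrocytes, 5% to 14.8% in astrocytes, 10.7% to 28.5% in microglia, 9.07% to 24.7% in OPC, 0% to 10% in neurons, 0.704% to 3.34% in mural and fibroblast nuclei and 0.873% to 1.45% of differences between types. A lone library was taken to vary like the others. With DESeq2, 0 members were called in microglia and 0 in OPC, where some had no adjusted p. Without the filter on low counts, 2 members were called in neurons, 5 in astrocytes and 2 in microglia, where 13.2%, 12% and 12.5% of all genes were called, and 5 differences between types, where 1.08% were, against 0.00435%, 17.8%, 24% and 1.99% with the filter. With nuclei assigned by marker score, 5 were called in astrocytes, 3 in microglia and 1 in OPC (11.1%, 22.6% and 9.41% of all genes), and the shares of nuclei differed by 5.94 percentage points for microglia and 3.90 for macrophages, against 2.61 and 6.39. At cluster resolution 0.4, 6 were called in astrocytes and 2 in OPC (24.8% and 14.4% of all genes). Without the nucleus of most UMIs, 0 were called in microglia.

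Thinning every nucleus to 1000 UMIs lowered the mean share of nuclei with a UMI from 56.2% to 19.7% for Timp3 in astrocytes, from 34.7% to 14.3% for Timp2 in microglia, from 40.2% to 12.1% for Adamts4 in oligodendrocytes, from 19.5% to 5.30% for Mmp14 in astrocytes and from 7.24% to 1.30% for Mmp2 in OPC.

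With a replicate block, 2 members were called over all nuclei, 2 in oligodendrocytes, 3 in astrocytes, 1 in microglia, 4 in OPC and 0 in neurons and in mural and fibroblast nuclei, as without it, where 21.8%, 33.2%, 22.7%, 29.9%, 23.2%, 6.39% and 3.91% of all genes were called in the same order. Deviations of same-numbered libraries correlated between -0.14 and 0.17, and the labels give the numbers no shared batch. The number of all genes called moved more. Over all nuclei it was 2416, against 4565 with DESeq2, 6893 without the filter, 5563 with the block and 1603 to 7012 with 1 library left out. In neurons it was 1, against 2241 with DESeq2, 5000 without the filter, 1469 with the block and up to 2435 with 1 library left out. DESeq2 called 1213 genes in astrocytes, 1182 in microglia and 947 in OPC, against 2567, 2647 and 2427, and 1570 were called in OPC by marker score. Genes called ranged from 2171 to 7003 in oligodendrocytes with 1 library left out, and in mural and fibroblast nuclei from 0 to 185 over all settings, against 1. Low counts limit Mmp9, Mmp12, Timp1 and Adamts14, and 21 to 42 mural and fibroblast nuclei per library limit every value there.

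The alternatives that put clusters set apart back and that drop the top nucleus were chosen after seeing the data.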
